A study of Mus musculus with 30 samples.

Results

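A set of 10 genes, known as markers of liver stellate cells, matrix and sinusoidal endothelium, was followed through 5 diets, out of 14173 genes measured. The members were 6 stellate and matrix genes (Col1a1, Col1a2, Col3a1, Dcn, Lrat and Reln) and 4 sinusoidal endothelial genes (Stab1, Stab2, Clec4g and Kdr). They were picked by symbol, all 10 had a row in the table of counts, and all 10 passed the filter on low counts in every comparison. RNA was read by 3′ end sequencing in livers of male C57BL6/J mice that lived on diets differing in protein source and amount, and 6 of the 10 mice on each diet were sequenced. The Cas-20% diet held 20% casein with 0.57 g methionine and 0.41 g cystine per 100 g, and Cas-5% held 5% casein with 0.15 g and 0.1 g. The Soy-20% diet held 20% soy protein with 0.22 g of each of these amino acids, Soy-20% + SAA held the same amount of soy protein with added sulphur amino acids up to 0.58 g methionine and 0.41 g cystine, and Soy-10% held 11.5% soy protein with 0.13 g of each. These contents are as the sample labels give them, and the study's methods give slightly lower ones for some diets. Every mouse arrived at 9 weeks and spent 2 weeks on a control diet, Cas-20% for the casein groups and Soy-20% for the soy groups. From 12 weeks of age the Cas-20% and Soy-20% groups stayed on their control diet and the other 3 groups changed to their own, and after 12 weeks all were sampled at 6 months of age after a 4 h fast. Cas-5% and Soy-10% differ in protein source and in protein amount at once, and these cannot be told apart.

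Stellate cells lie between the endothelium and the hepatocytes. In the healthy liver they store vitamin A as retinyl esters, and when activated by injury they turn into the main makers of fibrillar collagen. The sinusoidal endothelium next to them is fenestrated, takes up waste molecules through scavenger receptors and depends on VEGF. Both cell types are a small part of whole liver, so their transcripts are read here against a background of hepatocyte RNA, and in bulk tissue fewer cells of a type and less RNA per cell cannot be told apart. The 6 hepatocyte markers measured (Alb, Apoa1 and others) summed to between 686610 and 916460 normalized counts in every liver.

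The promoters of 4 members are shown because these genes carry the results that follow: Col1a2 and Col3a1 for collagen transcripts that varied together, Reln and Stab1 for the diet effects. RefSeq promoters (assembly GRCm38.p6, 250 bases before to 50 after the RefSeq start of each gene) were held for 8 of the 10 members. Each is printed 5′ to 3′ on the strand of the gene, from chr6:4505368-4505667, plus strand, for Col1a2, chr1:45311288-45311587, plus strand, for Col3a1, chr5:22344656-22344955, minus strand, for Reln, and chr14:31168592-31168891, minus strand, for Stab1. Capitals mark the TATA box (TATAAA), the CCAAT box and the GC box (GGGCGG), searched on both strands. These motifs did not overlap in the windows shown. Positions count from 1 at the RefSeq start of the gene. For Col1a2 the deposited coordinates put the start of the gene at 4504814, before the window printed.
Col1a2: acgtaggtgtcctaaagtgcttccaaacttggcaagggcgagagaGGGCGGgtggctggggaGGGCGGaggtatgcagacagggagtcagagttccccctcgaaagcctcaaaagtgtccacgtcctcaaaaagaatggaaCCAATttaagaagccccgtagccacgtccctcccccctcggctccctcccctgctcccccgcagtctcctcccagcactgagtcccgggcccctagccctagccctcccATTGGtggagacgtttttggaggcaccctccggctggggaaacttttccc
Col3a1: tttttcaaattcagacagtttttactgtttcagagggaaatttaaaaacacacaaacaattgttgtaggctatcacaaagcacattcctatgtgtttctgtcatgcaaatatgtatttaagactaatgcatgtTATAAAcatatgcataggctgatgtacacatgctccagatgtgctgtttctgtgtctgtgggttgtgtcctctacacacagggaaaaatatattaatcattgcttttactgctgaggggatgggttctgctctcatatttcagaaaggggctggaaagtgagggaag
Reln: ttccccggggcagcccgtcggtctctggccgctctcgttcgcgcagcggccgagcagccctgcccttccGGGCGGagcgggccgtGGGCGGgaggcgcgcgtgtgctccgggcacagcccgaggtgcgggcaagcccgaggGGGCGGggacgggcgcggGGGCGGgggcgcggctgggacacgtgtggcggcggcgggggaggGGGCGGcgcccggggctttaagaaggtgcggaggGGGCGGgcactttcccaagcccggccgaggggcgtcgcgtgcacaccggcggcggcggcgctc
Stab1: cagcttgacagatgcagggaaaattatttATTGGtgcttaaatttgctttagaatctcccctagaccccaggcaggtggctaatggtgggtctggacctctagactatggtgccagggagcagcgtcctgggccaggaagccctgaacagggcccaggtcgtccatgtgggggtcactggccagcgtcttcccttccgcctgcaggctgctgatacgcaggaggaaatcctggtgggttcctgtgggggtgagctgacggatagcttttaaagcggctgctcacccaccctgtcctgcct
The GC box GGGCGG was found 6 times in the Reln window, at 80.7% GC, and 2 times in that of Col1a2, at 61.0% GC. Of 32851 promoters in the RefSeq table, 35.7% held GGGCGG at least once. The CCAAT box lay at -109 in Col1a2 and, on the opposite strand, at 1 in Col1a2 and at -221 in Stab1, and 37.4% of all promoters held it. TATAAA was present at -117 in Col3a1, whose window was 37.7% GC, and in 13.6% of all promoters. The letters are a description of these windows and were tested against no result.

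Libraries held between 7694015 and 14565542 counts (median 10803734). Member counts per liver ran from 26 for Col1a1 to 4847 for Dcn, and Col1a1 had the widest errors in every comparison. Libraries 3 to 6 of Soy-20% + SAA stood apart: over 11967 genes their log2 counts rose by 0.058, 0.19, 0.18 and 0.20 for each 10% of GC in the last 200 bases of the transcript, against -0.065 to 0.035 in the other 26. Leaving out these 4 libraries leaves 2 livers in that diet.

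Over all 5 diets, 4 of the 10 members differed (edgeR quasi-likelihood F test over 30 livers, adjusted p of 0.05 or less), beside 43.4% of all genes tested. They were Reln (adjusted p = 0.000842), a secreted glycoprotein made in the liver by stellate cells, Dcn (adjusted p = 0.0194), the small proteoglycan decorin that coats collagen fibrils, Stab1 (adjusted p = 0.00557), a scavenger receptor, and Kdr (adjusted p = 0.0278), the main signalling receptor for VEGF. The adjusted p of the other 6 ran from 0.0879 for Stab2 to 0.395 for Lrat. With those 4 libraries left out 4 members were called, beside 26.2% of all genes. In each of the 10 genes the diet with the highest mean was Cas-5%, in some of them by very little. Mean Stab1 was 171.2 normalized counts in Cas-5% and 170.8 in Soy-20% + SAA, and mean Lrat was 281.6 in Cas-5% and 281.3 in Soy-20%. How many of all genes were highest in Cas-5% was not counted.

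Reln means were 298 ± 51 normalized counts (SD, n = 6) in Cas-5%, 248 ± 33.8 in Soy-20% + SAA, 222 ± 9.99 in Cas-20%, 216 ± 23.7 in Soy-10% and 215 ± 25.5 in Soy-20%. No step between neighbours in that order was larger than the larger of the 2 SDs. Dcn stood at 3634 ± 511 in Cas-5% and between 2932 and 2993 in the other 4 diets, and the step below Cas-5% exceeded the larger SD. Kdr showed the same single step, from 1099 ± 39.8 in Cas-5% to 1014 ± 82.9 in Soy-20% + SAA, with Soy-20% lowest at 918 ± 100. Stab1 broke at the bottom of its order, where Cas-20% (133 ± 7.34) lay below Soy-20% (147 ± 9.41) by more than the larger SD. In Col1a1, Col1a2 and Col3a1 the order of means was Cas-5%, Soy-20% + SAA, Soy-20%, Cas-20% and Soy-10%, with no step above the larger SD. Col1a1 means ran from 38.8 ± 13.9 to 62 ± 12.7, and Col3a1 means from 175 ± 27.6 to 234 ± 46.5. For Lrat, Stab2 and Clec4g all neighbours also lay within the larger SD.

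**Figure D1:**
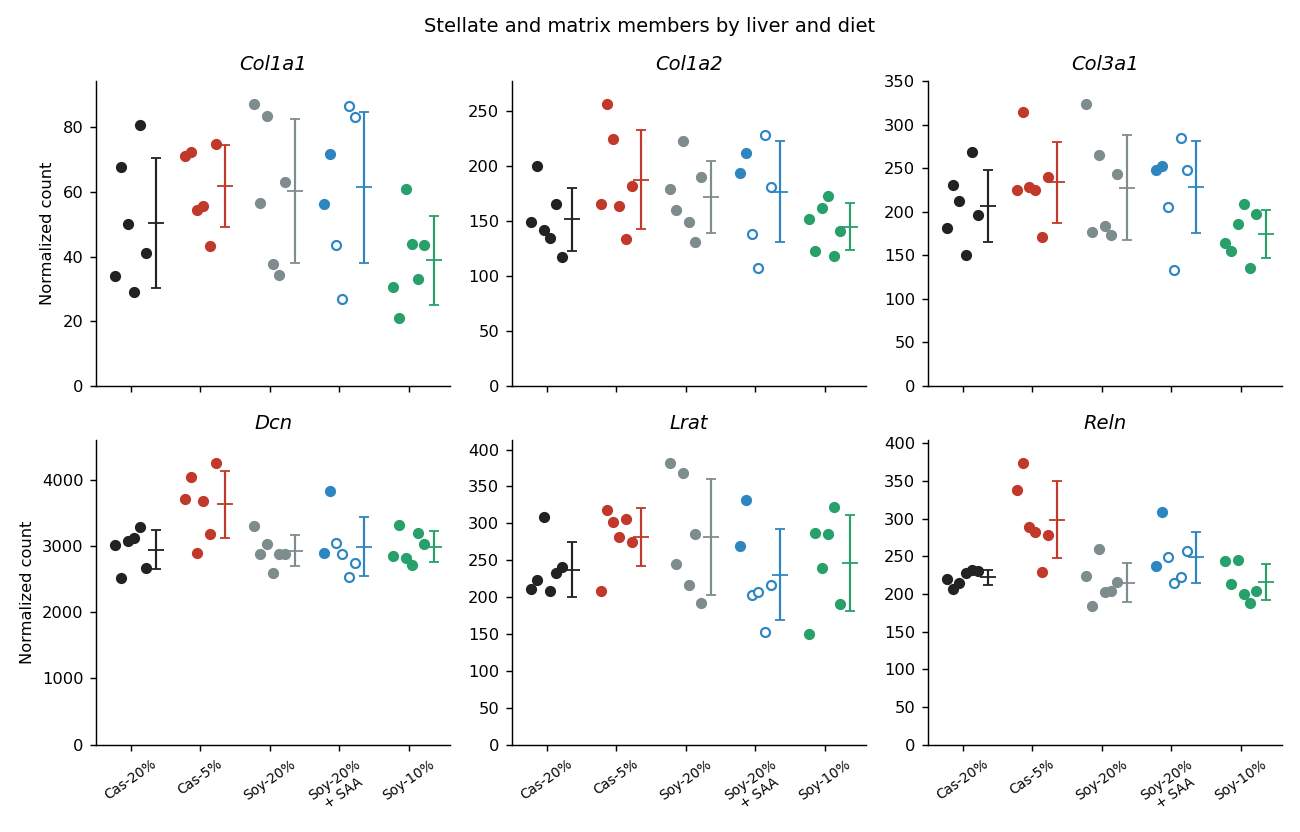
Normalized counts of the 6 stellate and matrix members (vertical axis, from 0) in each of 6 livers of the 5 diets (horizontal axis). Bars give mean and SD, and open points are Soy-20% + SAA libraries 3 to 6; Reln and Dcn are highest in Cas-5%, and the 3 collagen genes scatter widely within every diet.

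Restriction of casein was read first. All 10 members were higher on average in Cas-5% than in Cas-20% livers, and 4 passed the test: Dcn and Reln among the stellate and matrix genes and Stab1 and Kdr among the endothelial genes. Of all 12076 genes tested 24.9% were called, and 11.6% were called in the higher direction, and the median log2 fold change was 0.31 for the 6 stellate and matrix members, 0.19 for the 4 endothelial members and 0.016 for all genes.

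Reln had 207 to 232 (median 224) normalized counts in Cas-20% livers and 229 to 374 (median 285) in Cas-5% livers, 5 of which lay above every Cas-20% liver. Its log2 fold change was 0.44 ± 0.10 (SE, adjusted p = 0.0039). No other member had a larger estimate in this comparison. In Dcn the range was 2527 to 3286 (median 3049) in Cas-20% and 2904 to 4266 (median 3699.5) in Cas-5%, with 4 Cas-5% livers above all of Cas-20%, and the log2 fold change was 0.32 ± 0.10 (adjusted p = 0.0238). The Dcn call was lost with the library GC slope as covariate (log2 fold change 0.25, adjusted p = 0.092) and when Cas-20% liver 2 or 6 or Cas-5% liver 2 or 6 was left out (adjusted p 0.051 to 0.058).

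The 3 fibrillar collagen chains overlapped between the diets and did not pass. Col1a1, a chain of type I collagen, had 29 to 80.7 (median 45.5) in Cas-20% and 43.3 to 74.8 (median 63.5) in Cas-5%, a log2 difference of 0.30 ± 0.23 with a 95% interval of -0.18 to 0.78 (adjusted p = 0.365). For its partner chain Col1a2 the log2 difference was 0.31 ± 0.15 (adjusted p = 0.151), and with the GC slope as covariate it became 0.46 (adjusted p = 0.039). Col3a1, the chain of type III collagen, differed by 0.18 ± 0.14 (adjusted p = 0.381). Lrat, which esterifies retinol for storage, stood at 208 to 309 (median 228) in Cas-20% and 209 to 318 (median 292) in Cas-5%, a log2 difference of 0.26 ± 0.11 (adjusted p = 0.0951). The call depended on 1 liver of either diet: without Cas-20% liver 3, at 309, the adjusted p of Lrat was 0.020, and without Cas-5% liver 1, at 209, it was 0.021.

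Among the endothelial members, Stab1 had 121 to 143 (median 134) normalized counts in Cas-20% and 147 to 203 (median 168) in Cas-5%, and Kdr had 855 to 1017 (median 983) and 1055 to 1148 (median 1095). In these 2 genes all 6 Cas-5% livers lay above all 6 Cas-20% livers, which held for 12.9% of all genes tested. The log2 fold changes were 0.38 ± 0.087 for Stab1 (adjusted p = 0.00386) and 0.20 ± 0.061 for Kdr (adjusted p = 0.0265). Kdr was no longer called without Cas-20% liver 6 or Cas-5% liver 2 or 4 (adjusted p 0.051 to 0.058). Stab2, the scavenger receptor that clears hyaluronan, had a log2 difference of 0.18 ± 0.07 (adjusted p = 0.0698), with 4 Cas-5% livers above all of Cas-20%. The adjusted p of Stab2 was 0.046 without Cas-20% liver 6. Clec4g, a C-type lectin of the sinusoidal endothelium, differed by 0.19 ± 0.072 (adjusted p = 0.0584), and without Cas-20% liver 1, at 921, the adjusted p was 0.024.

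**Figure D2:**
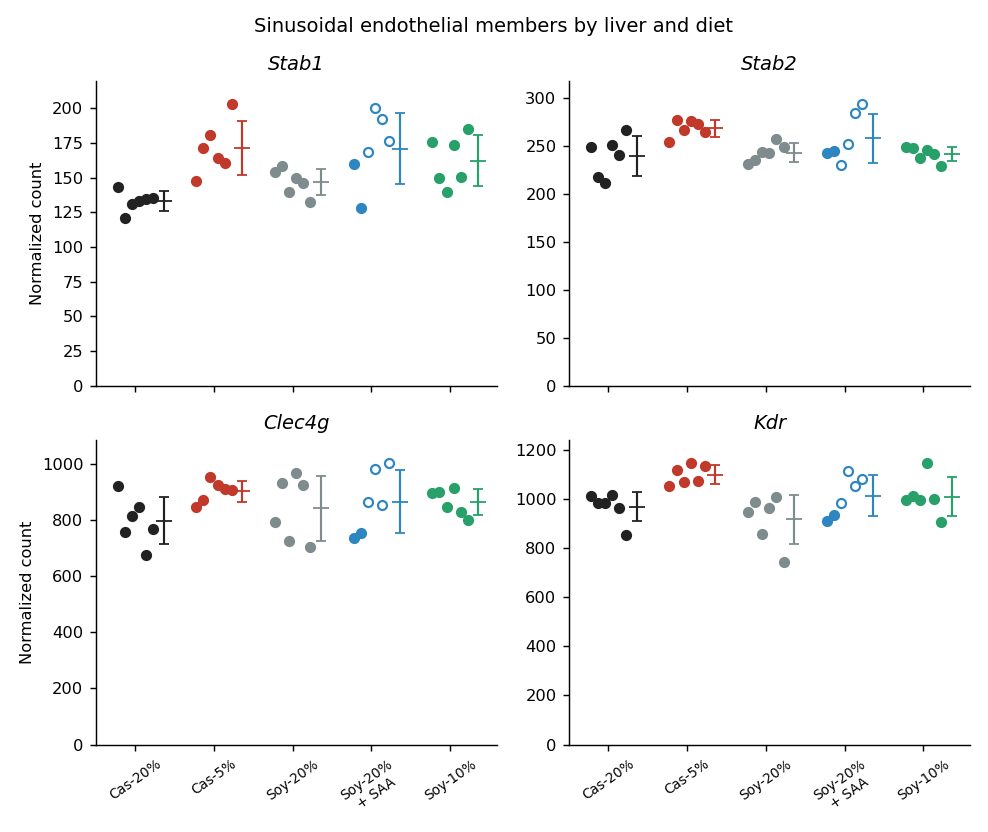
Normalized counts of the 4 endothelial members (vertical axis, from 0) in each of 6 livers of the 5 diets (horizontal axis), with mean and SD as bars. Stab1 and Kdr do not overlap between Cas-20% and Cas-5%, and the open points, Soy-20% + SAA libraries 3 to 6, lie above the 2 filled ones of that diet in Stab1, Clec4g and Kdr.

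Markers of other cells were read in the same livers, and their counts stand beside 24.9% of all genes called. None of 10 Kupffer cell markers was called in Cas-5% against Cas-20% (summed level 3460 to 5936 and 3913 to 5449 normalized counts). Of 5 red blood cell markers 4 were lower in Cas-5%, such as Alas2 (-0.67 ± 0.12, adjusted p = 0.000568), with sums of 15728 to 34944 in Cas-20% and 11503 to 19812 in Cas-5%. Mean Alas2 was 570 in Cas-5% and 823 to 1021 in the other diets. The globin Hba-a1 instead stood out in Cas-20%, at a mean of 4968, against 3145 in Cas-5% and 2845 to 3364 in the soy diets. Of 6 hepatocyte markers 1 was higher, Alb (0.35 ± 0.094, adjusted p = 0.011), and 2 were lower, the urea cycle enzymes Cps1 (-1.40 ± 0.15) and Ass1 (-2.39 ± 0.16). Gas6 (-0.42 ± 0.15, adjusted p = 0.0491) was lower among 7 fibroblast and smooth muscle markers tested, Cd4 (-1.53 ± 0.37, adjusted p = 0.00595) among 5 lymphocyte markers and Cidec (-1.50 ± 0.49, adjusted p = 0.0328) as the single adipocyte marker measured, while none of 2 cholangiocyte and 2 mesothelial markers tested was called. The Gas6 call was lost in 9 of 12 fits without 1 liver and the Cidec call in 8. No marker of these lists had a median of 0 over the 30 livers. The part of these shifts in the member values was not tested.

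Restriction of soy protein was read next. In Soy-10% against Soy-20% + SAA none of the 10 members was called, beside 17.0% of 11983 genes. DESeq2 called no member either. An unadjusted p under 0.05 was held by 2 members, beside 4064 of all genes. The median log2 difference was -0.25 for stellate and matrix members, -0.045 for endothelial members and -0.0097 for all genes.

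The largest differences were in the collagens. Col1a1 had 26.8 to 86.7 (median 64.1) in Soy-20% + SAA and 21 to 61 (median 38.4) in Soy-10%, a log2 difference of -0.67 ± 0.28 (interval -1.28 to -0.07, adjusted p = 0.108). Col3a1 had 133 to 284 (median 248) and 136 to 209 (median 175), a difference of -0.39 ± 0.16 (interval -0.73 to -0.055, adjusted p = 0.0955). For both, Soy-20% + SAA liver 4 was the lowest of its diet at 26.8 and 133 normalized counts, and without it the Col1a1 difference was -0.83 (adjusted p = 0.042) and that of Col3a1 -0.51 (adjusted p = 0.015). Without libraries 3 to 6 the differences were -0.73 for Col1a1 (adjusted p = 0.24) and -0.53 for Col3a1 (adjusted p = 0.072). Col1a2 differed by -0.29 ± 0.16 (adjusted p = 0.226) and Reln by -0.21 ± 0.10 (adjusted p = 0.165). The Dcn estimate was -0.0036 ± 0.092 with an interval of -0.20 to 0.19. These became, without libraries 3 to 6, -0.49 for Col1a2 (adjusted p = 0.090), -0.34 for Reln (adjusted p = 0.21) and -0.18 for Dcn (adjusted p = 0.44).

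The endothelial members differed by -0.10 (Stab2) to -0.0051 (Clec4g) on the log2 scale, with intervals that held 0. Within Soy-20% + SAA, Stab1, Clec4g and Kdr followed the split of libraries. Clec4g stood at 735 and 753 in libraries 1 and 2, and at 865, 981, 855 and 1005 in libraries 3 to 6. Kdr stood at 909.7 and 936 against 985 to 1116. Without libraries 3 to 6 the differences turned positive in Clec4g (0.21), Stab1 (0.16) and Kdr (0.12) and negative in Lrat (-0.30, against 0.095 with all livers), none of them called.

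Soy-10% can also be set against Soy-20%, whose libraries showed no such split. Here 0.866% of 11897 genes were called and none of the members, and DESeq2 called no member. Again 2 members had an unadjusted p under 0.05, beside 1460 of all genes. Col1a1 was at 34.3 to 87.4 (median 59.9) in Soy-20% and differed by -0.64 ± 0.26 (interval -1.19 to -0.10, adjusted p = 0.303). Col3a1, at 174 to 324 (median 214) in Soy-20%, differed by -0.38 ± 0.15 (adjusted p = 0.296), and Col1a2 by -0.25 ± 0.13 (adjusted p = 0.438). The other 7 lay between -0.20 (Lrat) and 0.14 (Stab1), and for Reln the interval was -0.19 to 0.20. The 2 soy comparisons share the Soy-10% livers.

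The next contrasts held the amount of protein alike. Between Soy-20% and Soy-20% + SAA no member was called, beside 0.00838% of 11932 genes (1 gene, and 873 by DESeq2, none a member). No member had an unadjusted p under 0.05, beside 2892 of all genes. Differences ran from -0.21 for Stab1 to 0.30 for Lrat, with Reln at -0.20 ± 0.11. Those of Stab1 and Lrat turned sign without libraries 3 to 6 of Soy-20% + SAA. Between Cas-20% and Soy-20% + SAA none was called either, beside 2.43% of 11988 genes. Stab1 came nearest, with a difference of -0.36 ± 0.10 (adjusted p = 0.06), and was the only member with an unadjusted p under 0.05, beside 3143 of all genes. DESeq2 called it (adjusted p = 0.029), as did one fit over all 30 livers (0.0076) and the fits without Soy-20% + SAA liver 1 (0.034) or 2 (0.021). Without libraries 3 to 6 of Soy-20% + SAA the Stab1 difference was -0.12 (adjusted p = 0.87).

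Set against each other, the 2 low-protein diets differed in 4 members, all stellate and matrix genes and all higher in Cas-5% than in Soy-10%, beside 10.7% of 12041 genes called and 4.59% in that direction. Reln had 188 to 245 (median 209) in Soy-10% livers, below 5 of 6 Cas-5% livers, a log2 fold change of 0.48 ± 0.11 (adjusted p = 0.00702). Col1a1 differed by 0.69 ± 0.21 (adjusted p = 0.0389), Col3a1 by 0.43 ± 0.13 (adjusted p = 0.0356) and Dcn by 0.30 ± 0.085 (adjusted p = 0.031). Each of these last 3 calls was lost in at least 7 of the 12 fits that left out 1 liver, and in one fit over all 30 livers Reln was the only call. The endothelial members differed by 0.079 (Clec4g) to 0.17 (Stab2), none called. All 6 Cas-5% livers lay above all 6 Soy-10% livers in Stab2, as in 5.86% of all genes. Its counts were 229 to 249 (median 243) in Soy-10% and 253 to 277 (median 269) in Cas-5%, and its adjusted p was 0.0759.

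**Figure D3:**
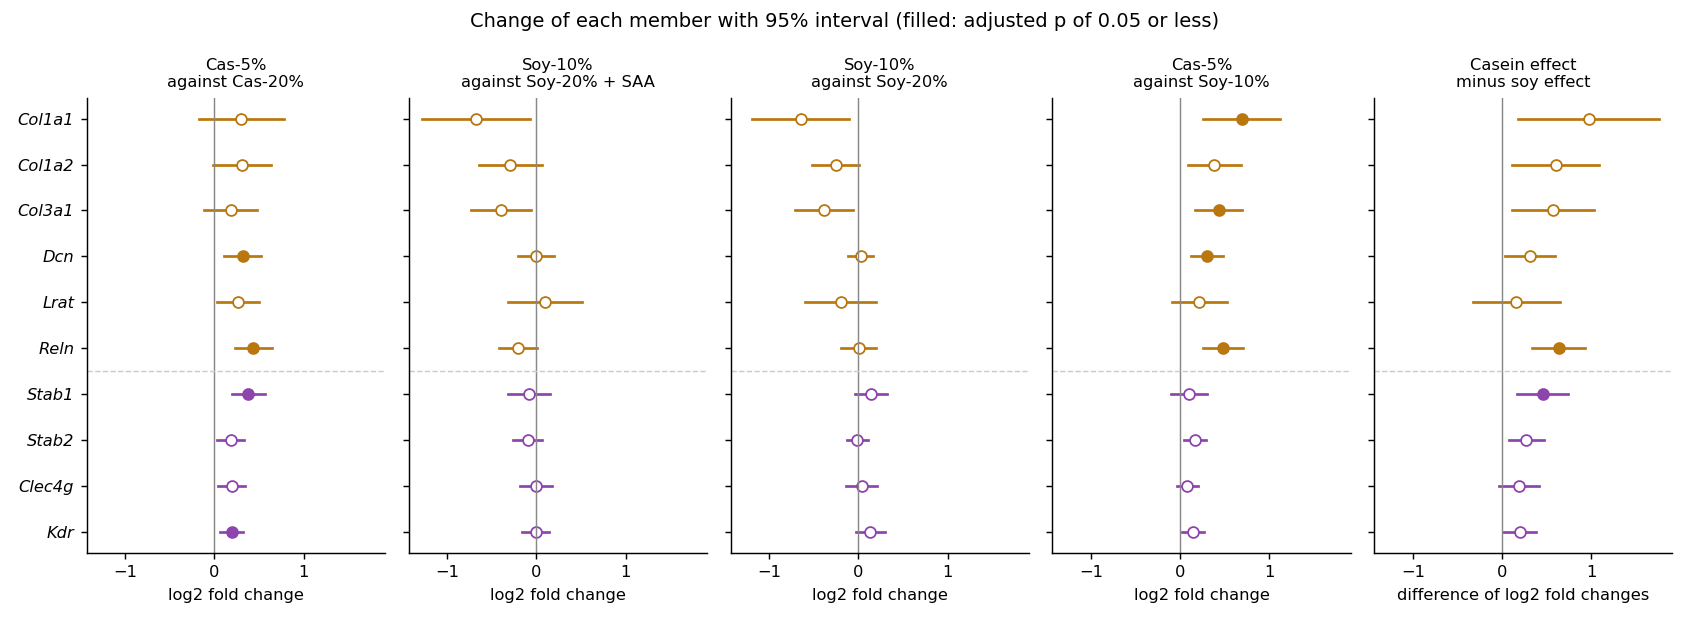
Log2 fold change of each member (points, with 95% intervals as lines) in 4 comparisons of diets, with the casein effect less that of soy in the last panel; filled points have an adjusted p of 0.05 or less, orange marks stellate and matrix genes and purple endothelial genes. All points lie right of 0 for Cas-5% against Cas-20%, and no point is filled in either soy comparison.

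Whether restriction acted differently on the 2 protein sources was tested directly, as the casein effect (Cas-5% minus Cas-20%) minus the soy effect (Soy-10% minus Soy-20% + SAA) over 24 livers. The difference was above 0 in all 10 members, 8 of them with an unadjusted p under 0.05, beside 3263 of 12532 genes. Its median was 0.38 for the members, which share the same livers, and 0.0064 for all genes. In Clec4g the sign turned without libraries 3 to 6 of Soy-20% + SAA. Of the 10 members 2 passed the test, beside 8.69% of all genes (3.2% in that direction). Reln had a difference of 0.64 ± 0.14 (adjusted p = 0.00949), made of 0.44 with casein and -0.21 with soy. It stayed called in all 24 fits without 1 liver and without libraries 3 to 6 of Soy-20% + SAA (0.77, adjusted p = 0.016). In Stab1 it was 0.45 ± 0.14 (adjusted p = 0.0417). The Stab1 call was lost without libraries 3 to 6 of Soy-20% + SAA (0.21, adjusted p = 0.55), with the GC slope as covariate (0.27, adjusted p = 0.28), and in 16 of 24 fits without 1 liver. With that covariate Dcn was called in addition to Reln (0.49, adjusted p = 0.031). Col1a1 had the largest estimate, 0.97 ± 0.38, with an interval of 0.18 to 1.76 (adjusted p = 0.105), Col1a2 had 0.60 ± 0.24 (adjusted p = 0.107) and Col3a1 0.57 ± 0.22 (adjusted p = 0.104). Without Soy-20% + SAA liver 4 the Col3a1 difference was 0.68 (adjusted p = 0.039). The collagen differences without libraries 3 to 6 were 1.02 for Col1a1 (adjusted p = 0.20), 0.80 for Col1a2 (adjusted p = 0.081) and 0.70 for Col3a1 (adjusted p = 0.11).

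The members were then compared with each other from liver to liver, after removing the mean of each diet from log2 CPM, the counts scaled to the library total. The 3 collagen chains varied together. Over 30 livers Pearson's r was 0.863 for Col1a1 and Col3a1 (Spearman's rho 0.855), 0.820 for Col1a2 and Col3a1 (rho 0.816) and 0.756 for Col1a1 and Col1a2 (rho 0.717), each with a permutation p of 1e-05 for r, the smallest that 100000 draws within diets can give, and an adjusted p of 0.00015 over 45 pairs. With the 2 livers farthest from the median of the first gene of each pair left out, r was 0.846, 0.737 and 0.694. Of the endothelial pairs, Clec4g and Kdr were closest (r 0.720, rho 0.730, permutation adjusted p = 0.00045, and r 0.674 without the 2 livers farthest in Clec4g).

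Dcn, Lrat and Reln did not join the collagens to that degree. Reln had r of 0.536 with Col3a1, 0.521 with Col1a2 and 0.518 with Dcn (permutation adjusted p = 0.0453 each). These fell to 0.397, 0.366 and 0.367 without the 2 livers farthest in Col3a1, Col1a2 and Dcn in turn. The Reln values did not decide which livers were left out. Within the stellate and matrix genes the median r over 15 pairs was 0.424, within the endothelial genes it was 0.372 over 6 pairs, and between the groups -0.127 over 24 pairs. One pair between the groups passed, with a negative sign: Col3a1 and Clec4g had r of -0.555 and rho of -0.594 (permutation adjusted p = 0.0453 for r). By Pearson's r 10 pairs passed, 6 within the stellate and matrix genes and 3 within the endothelial genes. By Spearman's rho 5 passed, which were the 3 collagen pairs, Clec4g with Kdr and Col3a1 with Clec4g. Without libraries 3 to 6 of Soy-20% + SAA 4 pairs passed by r over 26 livers, which were the 3 collagen pairs (r 0.825, 0.748 and 0.681) and Clec4g with Kdr (r 0.686), while Col3a1 with Clec4g had r of -0.556 (permutation adjusted p = 0.111).

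**Figure D4:**
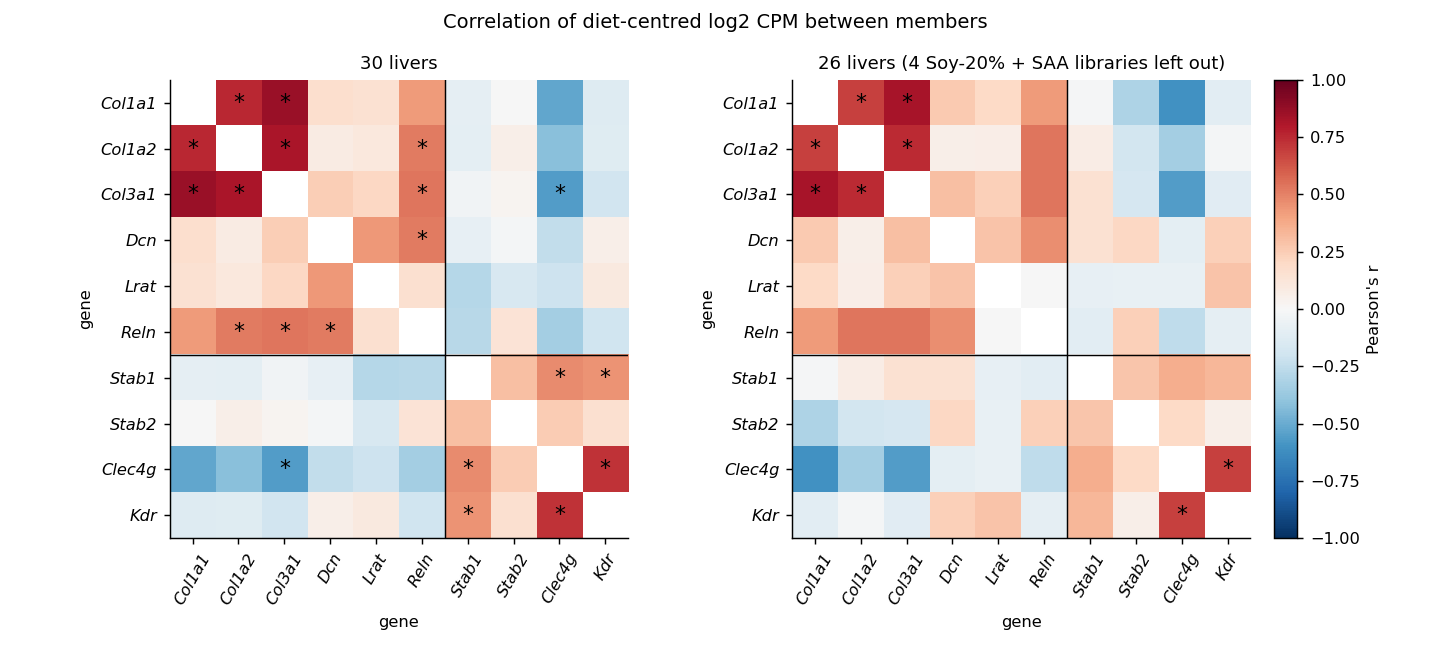
Pearson's r between members after removal of diet means from log2 CPM, over 30 livers (left) and over 26 livers without Soy-20% + SAA libraries 3 to 6 (right); stars mark a permutation adjusted p of 0.05 or less and black lines part stellate and matrix genes from endothelial genes. The collagen block and the Clec4g and Kdr pair carry stars in both panels.

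Other genes were ranked by Spearman's rho with the mean standardised log2 CPM of each group over 30 livers, diet differences included. The 5 closest to the stellate and matrix members were Sox4 (0.859), a transcription factor, Col6a3 (0.826), a chain of type VI collagen, Fstl1 (0.765), a secreted glycoprotein, Tead1 (0.752) and Scara3 (0.748). Among the closest to the endothelial members were the ribosomal protein genes Rps20 (0.939), Rps15a (0.916), Rpl8 (0.903) and Rpl13 (0.897). The points share library and depth. On the deposited normalized counts Sox4 (0.839) and Rps20 (0.903) stayed first of their lists and Tead1 fell to rank 14. Over 26 livers, without libraries 3 to 6 of Soy-20% + SAA, Sox4 stayed first (0.893), Rps20 was at rank 3 (0.924) and Tead1 at rank 29 (0.722).

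The neighbours of the members in the matrix were read from lists of known genes, members left out. Of 15 other collagens tested, 2 were higher in Cas-5% than in Cas-20%, Col6a3 (0.67 ± 0.19, adjusted p = 0.0154) and Col15a1 (0.61 ± 0.20, adjusted p = 0.0377). Of 26 other matrix proteins and proteoglycans 5 were higher and none lower, led by lumican, Lum (1.03 ± 0.17, adjusted p = 0.000341), a relative of decorin, and Tgfbi (0.43 ± 0.11, adjusted p = 0.00728). P4ha2 (0.55 ± 0.17, adjusted p = 0.0271), a prolyl hydroxylase that stabilises collagen, was the single call among 18 genes of collagen folding and cross-linking. Of 10 genes of matrix turnover, the metalloproteinases Mmp14 (0.87 ± 0.092, adjusted p = 3.71e-06) and Mmp2 (0.66 ± 0.17, adjusted p = 0.00964) were higher, and Mmp19 (-0.45 ± 0.11, adjusted p = 0.00641) and Mmp15 (-0.26 ± 0.085, adjusted p = 0.0334) were lower. These shares, like those of the lists that follow, stand beside 24.9% of all genes. Without 1 liver the collagen count ranged from 1 to 4 and the folding count from 0 to 3, and the Col15a1 call was lost in 7 of 12 such fits, that of Mmp15 in 6 and that of P4ha2 in 3.

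Stellate signals went both ways. Of 23 genes of stellate activation and fibrogenic signalling, 2 were higher in Cas-5%, the TGF-beta co-receptor Tgfbr3 (0.46 ± 0.11, adjusted p = 0.00512) and the PDGF receptor Pdgfra (0.59 ± 0.18, adjusted p = 0.0249), and 3 were lower, among them the ligand Pdgfa (-0.55 ± 0.10, adjusted p = 0.000595) and the matricellular Ccn1 (-0.56 ± 0.17, adjusted p = 0.0227). Of 22 other stellate markers 4 were higher, such as Colec11 (0.28 ± 0.072, adjusted p = 0.00823) and Adamtsl2 (0.85 ± 0.24, adjusted p = 0.014), and Steap4 was lower (-0.55 ± 0.16, adjusted p = 0.0159). In the retinoid list of 15 genes the receptor Rarg was higher (0.54 ± 0.14, adjusted p = 0.009) and 3 were lower, including Stra6l (-0.62 ± 0.086, adjusted p = 5.34e-05), a retinol transporter, and Rara (-0.59 ± 0.10, adjusted p = 0.000289). Without 1 liver the count of fibrogenic signals called ranged from 2 to 5 and that of other stellate markers from 3 to 6, and the Pdgfra call was lost in 4 of 12 fits.

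On the endothelial side, 5 of 20 other sinusoidal markers were higher in Cas-5% and none lower, with Oit3 (0.37 ± 0.091, adjusted p = 0.00595) and the Wnt co-activator Rspo3 (0.32 ± 0.089, adjusted p = 0.015) first. None of 24 general endothelial markers was called. Of 15 genes of the VEGF and angiopoietin axis, 5 were higher, led by the neuropilins Nrp1 (0.82 ± 0.11, adjusted p = 4.16e-05) and Nrp2 (0.70 ± 0.12, adjusted p = 0.000398), co-receptors of the receptor that Kdr encodes. Without 1 liver the general endothelial count ranged from 0 to 2 and the VEGF count from 3 to 5.

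**Figure D5:**
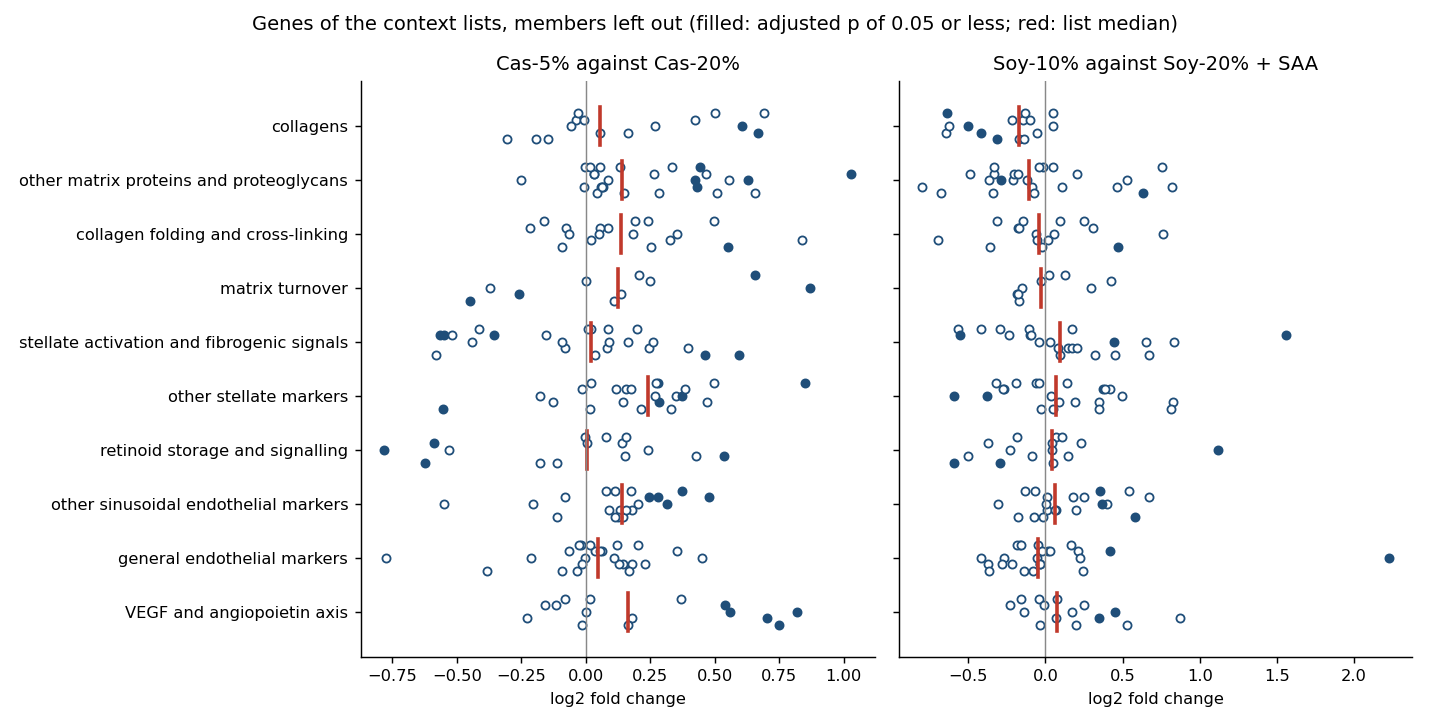
Log2 fold change (horizontal axis) of each gene of 10 context lists (rows, members left out) in Cas-5% against Cas-20% and in Soy-10% against Soy-20% + SAA; filled points have an adjusted p of 0.05 or less and red bars are list medians. Filled points of the matrix and sinusoidal endothelial lists lie right of 0 in the left panel, apart from 2 in matrix turnover, and the collagens filled in the right panel lie left of 0.

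In Soy-10% against Soy-20% + SAA 4 of 15 other collagens were lower and none higher, beside 17.0% of all genes, including Col18a1 (-0.31 ± 0.067, adjusted p = 0.00865) and Col27a1 (-0.64 ± 0.14, adjusted p = 0.00996). Fn1, fibronectin, was lower (-0.29 ± 0.061, adjusted p = 0.00832) and Lamc1 higher (0.63 ± 0.20, adjusted p = 0.0422) among 24 other matrix genes, Ppib was higher (0.47 ± 0.14, adjusted p = 0.0331) among 16 folding genes, and none of 9 turnover genes was called. Ccn1 (1.56 ± 0.39, adjusted p = 0.0162) and Yap1 (0.44 ± 0.12, adjusted p = 0.0266) were higher and Pdgfa lower (-0.55 ± 0.11, adjusted p = 0.00543) among fibrogenic signals, and Cxcl12 was higher (0.37 ± 0.10, adjusted p = 0.0208) and Cygb lower (-0.38 ± 0.11, adjusted p = 0.032) among stellate markers. In the retinoid list Cyp26a1 was higher (1.12 ± 0.32, adjusted p = 0.0301) and Stra6l was lower (-0.30 ± 0.075, adjusted p = 0.0173). Higher genes on the endothelial lists were Oit3 (0.35 ± 0.10, adjusted p = 0.0271), Fcgr2b (0.37 ± 0.11, adjusted p = 0.0308) and 1 more of 20 sinusoidal markers, Tspan7 (0.42 ± 0.091, adjusted p = 0.00894) and Sox18 (2.23 ± 0.65, adjusted p = 0.0326) of 24 general markers, and Nrp1 (0.45 ± 0.13, adjusted p = 0.0313) and Nrp2 (0.35 ± 0.11, adjusted p = 0.0493) of 15 VEGF genes. Kupffer markers Marco (2.35 ± 0.59, adjusted p = 0.0162) and C1qc (0.34 ± 0.10, adjusted p = 0.0307) were also higher. Marco ran from 62.6 to 670 (median 91.5) normalized counts in Soy-10% and from 15.5 to 47.9 (median 39.3) in Soy-20% + SAA.

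The calls of Lamc1, Ppib, Cygb, Cyp26a1, Oit3, Fcgr2b, Sox18 and Nrp2 were each lost in at least 7 of 12 fits without 1 liver. Without libraries 3 to 6 of Soy-20% + SAA 2.54% of all genes were called, and with the GC slope as covariate 2.79%, in place of 17.0%. Without the libraries none of the collagen, other matrix, folding, sinusoidal, general endothelial, VEGF and Kupffer lists held a call, and none did with the GC slope as covariate. Calls left without those libraries were lower genes: 2 fibrogenic signals, 1 stellate marker, 2 retinoid genes, 2 cholangiocyte markers and 2 hepatocyte markers. Against Soy-20%, no gene of the 10 matrix, stellate and endothelial lists was called in Soy-10%. Sox9, a cholangiocyte marker, was lower in Soy-10% in both comparisons (-0.62 ± 0.10, adjusted p = 0.00157 against Soy-20% + SAA, -0.65 ± 0.077, adjusted p = 0.000597 against Soy-20%). Ass1 fell in both as well (-0.88 ± 0.11, adjusted p = 0.000325, and -0.87 ± 0.11, adjusted p = 0.0013), and Apoa1 was lower against Soy-20% + SAA (-0.31 ± 0.10, adjusted p = 0.0468), a call lost in 10 of 12 fits without 1 liver. None of the lymphocyte, mesothelial, fibroblast and smooth muscle, adipocyte and red blood cell lists held a call in either soy comparison.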

How the data were processed

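RNA from 30 mouse livers, 6 for each of 5 diets, had been sequenced by the authors with a QuantSeq 3′ kit on the Bluebee pipeline. The aligner and counter are not given in the sources used here. The deposited tables held raw counts per gene (unit: counts) and, beside them, the authors' DESeq2 1.30 normalized counts (a signal on the scale of counts divided by size factors; R 4.0.3), with GRCm38 coordinates. The 2 deposited tables agreed to a relative difference of 5.2e-15 after division by the size factors. Symbols that the tables left blank were taken from GENCODE M21 for 1684 genes. Every row had a total of at least 90 counts over the 30 livers.

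Members and context lists were chosen with earlier results of these data known. Raw counts were tested with edgeR 4.0.16 (R 4.3.3): filterByExpr, TMM factors, quasi-likelihood F test, Benjamini-Hochberg adjustment over all genes tested, called at 0.05. Pairs of diets were fitted on their 12 livers, the difference of effects on 24, and the 5-diet test on 30 with 4 coefficients. Errors are SE of log2 fold changes, and 95% intervals come from the same fit. P-values of these fits set a diet difference against the spread between sequenced livers. Correlations used log2 CPM with a prior count of 2 and 100000 permutations of livers within diets, two-sided. The main edgeR fit was tested on simulated data for part of the comparisons, and the other steps were not. Levels are quoted as deposited normalized counts.

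Named from each list were the 3 genes with the smallest adjusted p over the 5 diets, when called in a printed comparison, and up to 2 called genes per direction in each restriction comparison. Some genes that this rule or the ranking by correlation named are not reported here. Alternatives were DESeq2 1.42.0 and its size factors, no filter or a mean of at least 10 counts, one fit over 30 livers, the GC slope as covariate, Soy-20% + SAA libraries 3 to 6 left out, a replicate block, each liver left out, and prior counts of 0.5 and 5. List counts, correlations on log2 normalized counts and the ranking without libraries 3 to 6 were added after seeing the data. The read length differed between sources and enters no value. Sequences were read from RefSeq promoters. Python 3.11.15, scipy 1.17.1 and matplotlib 3.10.9 were used.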

Additional observations from a re-analysis of the deposited data

Results flagged for a closer look

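In 2 of 50 groups of 6 livers (10 members in 5 diets) one liver stood apart by the gap between it and its nearest neighbour, a rate near the 1 in 20 that chance gives. Lrat in Cas-20% liver 3 was 309 normalized counts, with the next liver at 240.3, and Kdr in Cas-20% liver 6 was 855, with the next at 963. Leaving out these livers moved the adjusted p of Lrat to 0.020 and that of Kdr to 0.058 in Cas-5% against Cas-20%.

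The effect of restriction differed between casein and soy in Reln by 0.64 on the log2 scale and in Stab1 by 0.45, tested as an interaction over 24 livers. Protein source and degree of restriction cannot be told apart in this test. The Reln difference was 0.77 without libraries 3 to 6 of Soy-20% + SAA (adjusted p = 0.016), and that of Stab1 was 0.21 there (adjusted p = 0.55).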

How the results depend on the processing

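Of the counts of members called, the 5-diet test kept 3 to 5 of 10 when 1 liver was left out. For Cas-5% against Cas-20% the count of 4 became 2 with a replicate block and 2 to 5 without 1 liver, and with the block Dcn (adjusted p = 0.069) and Kdr (0.060) were lost. For Cas-20% against Soy-20% + SAA it became 1 with DESeq2 and 1 with one fit over all 30 livers, and 0 to 1 without 1 liver. For Soy-10% against Soy-20% + SAA it was 0 to 2 without 1 liver. For Cas-5% against Soy-10% the 4 became 1 with one fit over all 30 livers and 1 to 5 without 1 liver. For the casein effect minus the soy effect the 2 became 1 with libraries 3 to 6 of Soy-20% + SAA left out, and 1 to 3 without 1 liver. The 10 correlated pairs became 4 without those libraries and 4 on log2 normalized counts, an alternative chosen after seeing the data. Replicate numbers did not pair the livers: deviations of same-numbered livers correlated between -0.19 and 0.239 over 60 pairs, so the block is no test of pairing, and it changed no other count of members called by over 1.5 times.

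Signs turned only in differences that had not been called. In Soy-10% against Soy-20% + SAA, the GC slope as covariate gave 0.20 for Clec4g, 0.15 for Stab1, 0.14 for Kdr, 0.024 for Stab2 and -0.20 for Lrat, and leaving out libraries 3 to 6 gave 0.21 for Clec4g, 0.16 for Stab1, 0.12 for Kdr and -0.30 for Lrat. The replicate block gave 0.0030 for Clec4g and 0.0047 for Dcn, and one fit over all 30 livers 0.00039 for Dcn. Against the same diet, Lrat was -0.096 in Soy-20% and -0.34 in Cas-20% without libraries 3 to 6, and -0.20 in Cas-20% with the covariate, while Stab1 in Soy-20% was 0.023 and 6.3e-05. The difference of effects in Clec4g was -0.023 without those libraries. Without 1 liver, Clec4g ranged from -0.048 to 0.043, Dcn from -0.047 to 0.087 and Kdr from -0.050 to 0.021 in Soy-10% against Soy-20% + SAA. Against Soy-20% the ranges were -0.0062 to 0.083 for Clec4g, -0.0060 to 0.068 for Dcn, -0.038 to 0.066 for Reln and -0.019 to 0.010 for Stab2, and in Cas-20% against Soy-20% + SAA Lrat ranged from -0.055 to 0.18. The cause was not tested. Depth limits Col1a1 most, at 26 to 108 counts per liver.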

Other observations

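The comparison of the 2 low-protein diets also reached other matrix and stellate genes, and uses none of the Soy-20% + SAA libraries. Higher in Cas-5% than in Soy-10% were 3 of 15 other collagens, 4 of 26 other matrix proteins, 2 of 17 folding genes and 5 of 22 other stellate markers, with none lower, beside 10.7% of all genes called. Lum (0.89 ± 0.17, adjusted p = 0.00189) and Fn1 (0.39 ± 0.079, adjusted p = 0.00368) led the matrix proteins. Of 10 turnover genes Mmp2 (1.02 ± 0.19, adjusted p = 0.00196), Mmp14 (0.36 ± 0.10, adjusted p = 0.0229) and 1 more were higher and Mmp19 (-0.44 ± 0.10, adjusted p = 0.00698) was lower. Of 22 fibrogenic signals 4 were higher, with Tgfbr3 (0.61 ± 0.10, adjusted p = 0.000684) and Pdgfra (0.69 ± 0.17, adjusted p = 0.0138), and Ccn1 was lower (-0.63 ± 0.15, adjusted p = 0.0117). Among the stellate markers stood Cygb (0.49 ± 0.12, adjusted p = 0.0124), Ednrb (0.39 ± 0.089, adjusted p = 0.00966) and Colec11 (0.22 ± 0.067, adjusted p = 0.0409), whose call was lost in 9 of 12 fits without 1 liver. In such fits the collagen count ranged from 1 to 5, the other matrix count from 2 to 6, the folding count from 0 to 3 and the stellate count from 4 to 9. The retinoid list held 2 higher and 2 lower genes of 15.

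Among the endothelial lists, Rspo3 (0.35 ± 0.079, adjusted p = 0.00873) was higher and 1 gene lower among 20 sinusoidal markers, Adgrf5 (0.33 ± 0.079, adjusted p = 0.0113) was higher among 24 general markers, and 2 of 15 VEGF genes were higher, Nrp1 (0.32 ± 0.10, adjusted p = 0.0395) among them, a call lost in 7 of 12 fits without 1 liver. These endothelial counts stand beside 10.7% of all genes called, and are not read as a result about vascular genes. No Kupffer marker of 10 was called, and 1 of 2 cholangiocyte markers was higher, Spp1 (0.64 ± 0.10, adjusted p = 0.00031).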
